A study of Mus musculus with 2 samples.

Results

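Neuronal Progenitor and CNS Neuron are 2 of the 16 cell types that the authors annotated in dissociated E11.5 mouse embryos, and the step between them is that from a dividing cell of the neural tube to a young neuron. All cells annotated as Neuronal Progenitor (597 cells) or CNS Neuron (532 cells) were taken, 1129 of 5678 annotated cells. Their gene UMIs, the counts of distinct transcript molecules captured, were summed for each suspension and type, which gave 8 sums of 1309721 to 2491750 UMIs. All embryos carried an EGFP transgene inserted by piggyBac transposase, driven by CAG, a promoter active in most tissues, and linked to a DNA barcode. F0_8 and F0_9 were each 1 founder embryo, raised from a C57BL/6J zygote that had received transposase mRNA by electroporation and the donor DNA by pronuclear injection. F1_1 was 1 embryo of the F1 generation. F1_mix was a mixture, made on purpose, of cells from 2 F1 embryos. No suspension without the transgene was analysed here. The suspensions were dissociated with trypsin, tagged with a multiplexing oligo each, sorted to remove debris and captured as 1 droplet library, so that both types of a suspension shared every step, and no cell barcode occurred in more than 1 suspension.

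In the embryonic neural tube, progenitors divide at the inner, apical surface and are kept undifferentiated by Notch signalling: a neighbour that presents a Delta ligand activates the Notch receptor, which switches on Hes repressors. Proneural factors such as Neurog2 act against this state, raise Delta ligands and drive the cell out of the cycle, after which neuronal transcription factors, cytoskeletal proteins and axon guidance receptors are made. Repressors such as Rest and the splicing regulator Ptbp1 are known to hold the neuronal programme down in progenitors.

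Levels are given in UMIs per 1000000 gene UMIs (CPM), and 4 values always stand for F0_8, F0_9, F1_1 and F1_mix in this order. A log2 difference is CNS Neuron over Neuronal Progenitor from edgeR's quasi-likelihood test with the suspension as block, with its standard error (SE) and its p-value adjusted over all 10469 genes tested, and a gene was called at an adjusted p under 0.05. The types are clusters that the authors drew from the same cells' expression, so that genes were bound to differ between them: for endogenous genes the p-values measure how closely the 4 suspensions agreed and are no evidence that the types exist. EGFP had been removed by the authors before clustering, and differences between founders and F1 were not used in it either.

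Per cell, more RNA molecules were captured from Neuronal Progenitor. Its median was 12200, 12904, 14675 and 14116 gene UMIs per cell against 10071.5, 10380, 11689.5 and 11276 in CNS Neuron, a ratio of 1.24 ± 0.02 (SD, n = 4). All 4 ratios lay above 1, and the smallest p that an exact two-sided permutation of 4 pairs allows is 0.13. Median UMIs of the multiplexing oligos, which are not RNA of the cell, were also higher in Neuronal Progenitor, by 1.09, 1.04, 1.17 and 1.09. How far capture entered the difference was not tested. The mitochondrial share of gene UMIs was 1.74% to 2.01% in Neuronal Progenitor and 2.01% to 2.25% in CNS Neuron by suspension. A CPM is a share of the RNA, so fewer molecules of a gene per cell and more of all others cannot be told apart by it.

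The labels were first set against 2 marker lists. The 18 neural progenitor markers summed to 5878, 6447, 6215 and 5763 CPM in Neuronal Progenitor and to 1619, 1909, 2002 and 1946 CPM in CNS Neuron. The 18 pan-neuronal markers ran the other way, with 1442, 1402, 1147 and 1505 CPM in Neuronal Progenitor and 11210, 10710, 11560 and 11970 CPM in CNS Neuron. Both labels therefore matched their markers in all 4 suspensions. The cluster annotated as Neuroectoderm/Glia (502 cells) held still more of the pan-neuronal list, 15920, 17780, 22110 and 20160 CPM, and less of the progenitor list, 547, 527, 821 and 711 CPM, than CNS Neuron. CNS Neuron was thus the middle of the 3 clusters on both lists, whatever the name of the last one.

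Of the genes tested, 3123 (29.8%) were higher in CNS Neuron and 3203 (30.6%) were higher in Neuronal Progenitor. At least 2-fold differences were called for 1239 genes (11.8%) in favour of CNS Neuron and 1407 genes (13.4%) in favour of Neuronal Progenitor. With 60.4% of all genes called in either direction, a call alone says little about a gene, and the lists below are read against these shares and against the median log2 difference of all genes tested, 0.007.

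**Figure D1:**
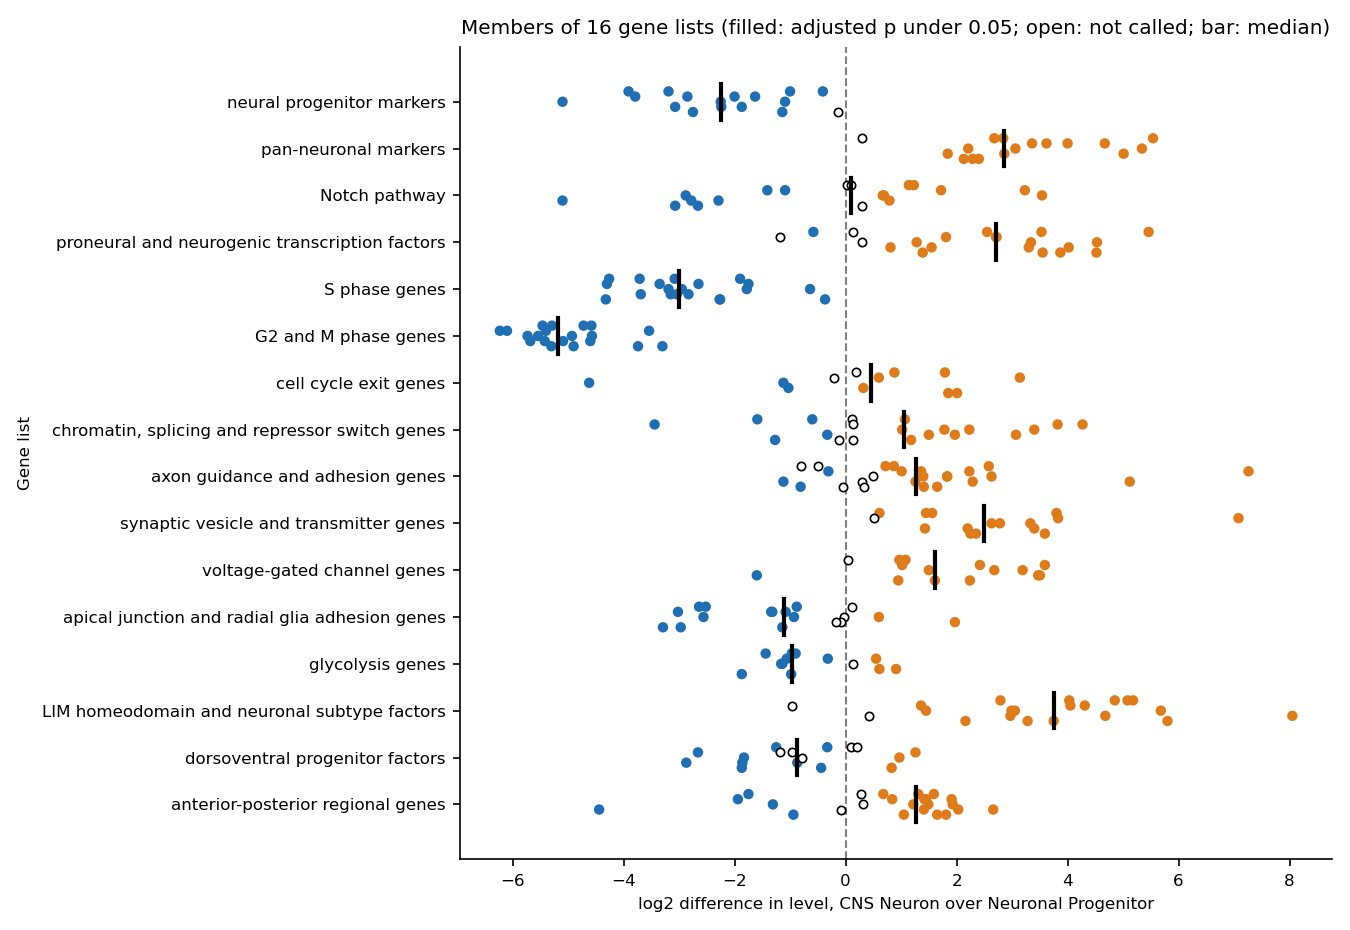
Log2 difference in level, CNS Neuron over Neuronal Progenitor (x axis), of each tested member of 16 gene lists (y axis): one point per gene, filled where the adjusted p was under 0.05, with a bar at the list's median and a dashed line at the median of all 10469 genes tested. The G2 and M phase genes lie at -6.23 to -3.30 and the pan-neuronal markers at 0.29 to 5.54, while Notch pathway genes spread from -5.10 to 3.54 around a median of 0.09.

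Progenitor markers were lower in CNS Neuron for 16 of 17 tested members, against a background of 30.6%, with a median log2 difference of -2.24. Sox2, a transcription factor that keeps neural cells in the progenitor state, stood at 414, 447, 457 and 369 CPM in Neuronal Progenitor and 66.9, 109.5, 90.9 and 79.0 CPM in CNS Neuron. The 4 CNS Neuron values lay below all 4 Neuronal Progenitor values, log2 difference -2.25, SE 0.09, adjusted p = 1.64e-09. Fabp7, the fatty acid binding protein of radial glia, stood at 1479, 1768, 1301 and 1318 CPM in Neuronal Progenitor and 169, 249.9, 193 and 180.3 CPM in CNS Neuron. Its levels were 7.21-fold lower in CNS Neuron, with no overlap, log2 difference -2.85, SE 0.06, adjusted p = 2.94e-11. Ednrb, an endothelin receptor of progenitors and neural crest, differed by 15.1-fold, Zfp36l1, an RNA-binding protein, by 13.8-fold, and Slc1a3, a glutamate transporter of radial glia, by 9.13-fold. Vim and Nes, the intermediate filament proteins of progenitors, differed less, by 1.99-fold and 3.99-fold, and Vim still stood at 894 to 1050 CPM in CNS Neuron. The member that was not called was Lin28b, a regulator of let-7 microRNA maturation, at 81.3, 86.9, 102 and 121 CPM in Neuronal Progenitor and 73.3, 76.2, 109 and 90.5 CPM in CNS Neuron. Its ranges overlapped, log2 difference -0.13, SE 0.10, adjusted p = 0.287. Lin28a had 33 and 44 UMIs in all and was not tested.

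Of 19 Notch pathway members tested, 8 (42.1%, background 29.8%) were higher in CNS Neuron, 8 (42.1%, background 30.6%) were higher in Neuronal Progenitor and 3 were not called. The receptors were on the progenitor side: Notch1 at 164, 183, 174 and 159 CPM in Neuronal Progenitor and 59.0, 84.1, 88.6 and 77.9 CPM in CNS Neuron, with Notch2 and Notch3 lower in CNS Neuron by 7.38-fold and 6.87-fold. The targets Hes5, Hes1, Nrarp and Hey1 were lower in CNS Neuron as well. Hes5, a repressor of proneural genes and a direct Notch target, stood at 361, 422, 352 and 345 CPM in Neuronal Progenitor and 19.9, 50.2, 53.5 and 48.1 CPM in CNS Neuron. This was 8.4-fold lower in CNS Neuron, log2 difference -3.07, SE 0.15, adjusted p = 1.05e-08, and the ranges were far apart. Hes1, a related repressor, was at 45.9, 45.7, 51.0 and 49.4 CPM in Neuronal Progenitor and 0, 3.63, 0 and 1.15 CPM in CNS Neuron, with 409 UMIs in Neuronal Progenitor and 8 in CNS Neuron. Nrarp, which is induced by Notch and dampens it, was lower in CNS Neuron by 6.32-fold, Lfng, a sugar transferase that modifies Notch, by 4.9-fold and the target Hey1 by 2.66-fold.

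The promoter of Hes5 is shown with the letters of an Rbpj site. It is the stretch of 250 bases before the start site that the RefSeq promoter table uses (GRCm38.p6, chr4:154960673-154960922, plus strand, 5′ to 3′). The RefSeq span of the gene begins further upstream, at 154960626, so that the window lies within it. Capitals mark GTGGGAA, the core recognised by Rbpj, the DNA-binding partner of Notch, on either strand.

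Hes5: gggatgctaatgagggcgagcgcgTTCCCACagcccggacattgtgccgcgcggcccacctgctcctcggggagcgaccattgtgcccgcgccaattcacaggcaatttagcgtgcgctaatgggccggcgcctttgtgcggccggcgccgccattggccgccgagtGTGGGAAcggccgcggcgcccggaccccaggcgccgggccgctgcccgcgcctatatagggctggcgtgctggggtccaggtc

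The window held 2 matches, of opposite strands. Among all 27025 promoter windows of this length in the table, 5.41% held GTGGGAA on either strand, and 2 of the 16 Notch pathway members with a window did (12.5%), Hes5 being 1 of them, while the window of Nrarp held 0. A match describes the letters only, and occupancy was not measured.

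The ligands did not move together. Dll1, the Delta ligand that progenitors and newborn neurons present, stood at 82.9, 72.4, 50.5 and 79.1 CPM in Neuronal Progenitor and 36.3, 82.3, 97.0 and 69.8 CPM in CNS Neuron. Its ranges overlapped and 2 suspensions differed in each direction, log2 difference 0.03, SE 0.23, adjusted p = 0.921. Dll3, a related protein that acts inside the cell that makes it, was at 30.8, 32.3, 28.6 and 61.8 CPM in Neuronal Progenitor and 275, 279, 388 and 455 CPM in CNS Neuron. CNS Neuron was 9.41-fold higher without overlap, log2 difference 3.23, SE 0.12, adjusted p = 1.02e-09. Dner, a Delta-like neuronal protein, was 11.6-fold higher and Hes6, a Hes family member that opposes Hes1, 2.21-fold higher in CNS Neuron. Numbl, an inhibitor of Notch, was 3.3-fold higher, Mfng and Rfng, other sugar transferases of the family of Lfng, 2.35-fold and 1.72-fold (the call for Rfng was lost with DESeq2) and Rbpj 1.59-fold, whereas Numb was at 90.7, 90.3, 112 and 80.3 CPM in Neuronal Progenitor and 96.0, 93.2, 101 and 95.04 CPM in CNS Neuron, log2 difference 0.09, SE 0.09, adjusted p = 0.394. Jag1, a ligand of the Jagged family, reached an adjusted p of 0.0227 but was higher in CNS Neuron in only 3 of 4 suspensions, and Maml1, a coactivator, was not called (log2 difference 0.29, SE 0.17, adjusted p = 0.17).

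**Figure D2:**
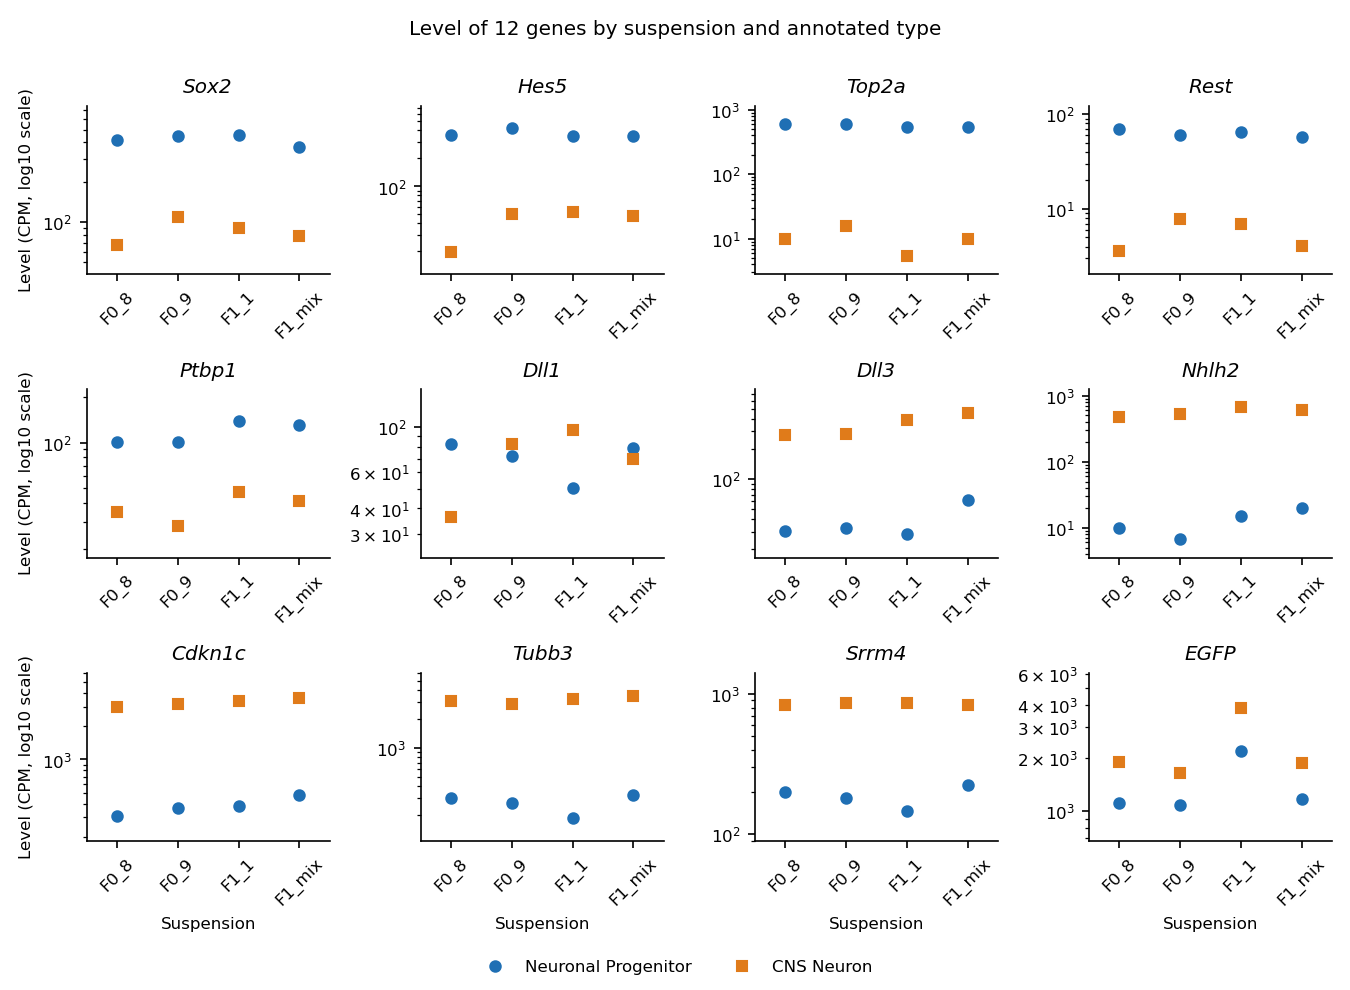
Level in CPM (y axis, log10 scale) of 12 genes in the 4 suspensions (x axis within each panel), blue for Neuronal Progenitor and orange for CNS Neuron. Sox2, Hes5, Top2a, Rest and Ptbp1 are lower in CNS Neuron in every suspension, Dll1 crosses, and Dll3, Nhlh2, Cdkn1c, Tubb3, Srrm4 and EGFP are higher in CNS Neuron in every suspension.

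Genes of the cell cycle were lower in CNS Neuron, those of the G2 and M phases furthest among the 16 lists. All 20 S phase genes were lower in CNS Neuron, with a median log2 difference of -3.00, and all 20 G2 and M phase genes were lower, with a median of -5.19, against the background of 30.6%. Summed, the G2 and M list stood at 4955, 5082, 4788 and 5006 CPM in Neuronal Progenitor and at 149, 202, 264 and 187 CPM in CNS Neuron. Top2a, the topoisomerase that untangles sister chromatids, was at 595, 604, 542 and 546 CPM in Neuronal Progenitor and 9.96, 15.7, 5.34 and 9.73 CPM in CNS Neuron. CNS Neuron was 53.2-fold lower, log2 difference -5.73, SE 0.13, adjusted p = 4.51e-11, and held 64 UMIs of it in all. Aurkb, a kinase of the mitotic spindle checkpoint, differed by 75.2-fold, Plk1, the polo-like kinase of mitosis, by 68.6-fold, Cdk1, the kinase that drives entry into mitosis, by 51.4-fold and its partner Ccnb1 by 44-fold. Ccnb2, a second B cyclin, kept more, at 156, 158, 154 and 185 CPM in Neuronal Progenitor and 4.27, 13.3, 21.4 and 16.03 CPM in CNS Neuron, 11.6-fold lower. Among S phase genes, Rrm2, which makes deoxynucleotides, stood at 360.3, 435, 476 and 537 CPM in Neuronal Progenitor and 12.1, 25.4, 22.1 and 31.5 CPM in CNS Neuron, 19.2-fold lower in CNS Neuron. Ung, a glycosylase that removes uracil from DNA, and Cdc6, a licensing factor of replication origins, had 11 and 9 UMIs left in CNS Neuron against 335 and 268. E2f1, a transcription factor of S phase entry, was lower by only 1.29-fold (log2 difference -0.37, SE 0.09, adjusted p = 0.00437), and its call was lost in at least 1 setting. Mcm2, a subunit of the replicative helicase, was lower by 1.56-fold, although the other 5 Mcm subunits on the list differed by 3.43-fold to 12.9-fold.

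Promoters of this group are shown because most of them hold the letters CCAAT, which the list was not chosen by. Each is the 250 bases before the start site that the same table uses on GRCm38.p6, minus strand, written 5′ to 3′ along the gene, with CCAAT (the box bound by NF-Y) and TTTGAA (the core of the CHR element of late cycle genes) in capitals on either strand. The windows are Ccnb1 at chr13:100786487-100786736, Ccnb2 at chr9:70421555-70421804 and Top2a at chr11:99024190-99024439, whose first bases by coordinate fall within the RefSeq span of the gene, which ends at 99024199.

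Ccnb1: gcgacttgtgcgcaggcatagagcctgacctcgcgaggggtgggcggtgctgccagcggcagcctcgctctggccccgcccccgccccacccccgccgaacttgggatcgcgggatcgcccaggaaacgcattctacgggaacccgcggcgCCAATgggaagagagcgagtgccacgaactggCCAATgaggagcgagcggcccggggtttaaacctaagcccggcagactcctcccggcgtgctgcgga

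Ccnb2: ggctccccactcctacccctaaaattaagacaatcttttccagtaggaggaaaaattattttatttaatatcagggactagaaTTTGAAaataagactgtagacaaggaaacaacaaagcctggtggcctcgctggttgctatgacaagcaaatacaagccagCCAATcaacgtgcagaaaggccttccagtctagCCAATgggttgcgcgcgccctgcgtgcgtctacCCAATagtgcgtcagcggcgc

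Top2a: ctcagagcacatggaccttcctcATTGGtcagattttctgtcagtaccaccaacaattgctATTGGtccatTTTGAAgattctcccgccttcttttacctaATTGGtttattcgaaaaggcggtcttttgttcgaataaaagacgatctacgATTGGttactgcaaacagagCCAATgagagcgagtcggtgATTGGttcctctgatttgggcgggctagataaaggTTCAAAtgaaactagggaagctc

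The Ccnb1 window held 2 CCAAT matches, that of Ccnb2 3 and that of Top2a 6. TTTGAA had 0 matches in the window of Ccnb1, 1 in that of Ccnb2 and 2 in that of Top2a. CCAAT occurred in 15 of the 17 G2 and M promoters in the table (88.2%), in 37.6% of the 8412 tested genes with a promoter and in 34.5% of all 27025 windows. TTTGAA occurred in 7 of the 17 (41.2%), in 9.88% of the tested genes and in 16.3% of all windows. For the S phase list the shares were 68.8% and 12.5% of 16. The pan-neuronal list, at 40% and 0% of 10, lay near the tested genes for CCAAT. These are counts of letters in fixed windows of 1 start site per gene, with no test.

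Single cells were compared at equal depth, after each had been thinned to 5000 gene UMIs, which left out 8 Neuronal Progenitor and 17 CNS Neuron cells. At least 1 UMI of the G2 and M list was found in 546 of 589 Neuronal Progenitor cells (92.7%, exact 95% interval 90.3% to 94.7%) and in 198 of 515 CNS Neuron cells (38.4%, 34.2% to 42.8%), and unthinned shares were 97.0% and 56.4%. For Mki67, a nuclear protein of cycling cells, the thinned shares were 55.3% and 4.47%. Of 60 Erythrocyte cells, 70% held a UMI of the list and 56.7% one of Mki67, but red cell precursors of this stage still divide and do not serve as a background for these genes. The median cell held 17 and 0 UMIs of the list. These intervals cover counting error only, since cells of a suspension are not replicates, and the lowest share by suspension in Neuronal Progenitor (88.7%) lay above the highest in CNS Neuron (44.6%).

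Genes of cell cycle exit were mixed: 7 of 12 (58.3%, background 29.8%) were higher in CNS Neuron, 3 (25%, background 30.6%) lower and 2 not called. The share of lower ones was under that of all genes tested. Cdkn1c, an inhibitor of cyclin-dependent kinases made by cells leaving the cycle, was at 311, 367, 384 and 482 CPM in Neuronal Progenitor and 2957, 3201, 3349 and 3593 CPM in CNS Neuron. It was 8.79-fold higher in CNS Neuron with a narrow spread, log2 difference 3.14, SE 0.06, adjusted p = 1.49e-11. Gadd45g, a stress and differentiation gene induced by proneural factors, was 3.45-fold higher and Gadd45a 4.04-fold higher. Btg2, an antiproliferative gene of neurogenic progenitors, was 1.52-fold higher, at 273, 252, 133 and 234 CPM in Neuronal Progenitor and 297, 354, 305 and 332 CPM in CNS Neuron. Cdkn1a, a further inhibitor, was at 3.13, 4.46, 3.96 and 10.4 CPM in Neuronal Progenitor and 44.8, 31.5, 7.63 and 7.44 CPM in CNS Neuron, high in the 2 founders' CNS Neuron sums only, and lower in CNS Neuron in F1_mix, and its call was lost without either founder. The cyclins Ccnd1 and Ccnd2 were lower in CNS Neuron by 2.17-fold and 2.04-fold, and Cdkn2c, an inhibitor made by dividing cells, had 117 UMIs in Neuronal Progenitor and 3 in CNS Neuron, a ratio of 28.1 (exact counting interval 9.39 to 138). Cdkn1b and Rb1 were not called (log2 difference 0.18, SE 0.12, adjusted p = 0.217 and log2 difference -0.21, SE 0.11, adjusted p = 0.108).

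Proneural and neurogenic transcription factors were higher in CNS Neuron for 17 of 21 tested members, lower for 1 and not called for 3, against a background of 29.8%, with a median log2 difference of 2.71, and the members ranged from -1.19 to 5.46. Neurog2, a proneural factor that drives cells out of the cycle, was at 162, 129.8, 58.9 and 68.2 CPM in Neuronal Progenitor and 137, 145, 192 and 202 CPM in CNS Neuron. It was higher in CNS Neuron in 3 of 4 suspensions with overlapping ranges, log2 difference 0.81, SE 0.26, adjusted p = 0.0167, a call that was lost with DESeq2 and without F1_1 or F1_mix. Neurog1 was 2.43-fold higher and Atoh1, the proneural factor of the dorsal hindbrain and spinal cord, 6.61-fold higher in CNS Neuron. Ptf1a (log2 difference 0.30, SE 0.31, adjusted p = 0.419), Olig2 (log2 difference -1.19, SE 0.50, adjusted p = 0.0571) and Eomes (log2 difference 0.14, SE 0.29, adjusted p = 0.704) were not called.

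Nhlh2, a helix-loop-helix factor of newborn neurons, was at 9.91, 6.69, 14.9 and 19.7 CPM in Neuronal Progenitor and 469.5, 527, 659.7 and 598 CPM in CNS Neuron. CNS Neuron was 44-fold higher, log2 difference 5.46, SE 0.14, adjusted p = 6.55e-11, and its relative Nhlh1 23-fold higher. Ebf1, a factor of migrating young neurons, was at 58.9, 62.4, 55.8 and 103 CPM in Neuronal Progenitor and 1561, 1581, 1725 and 1433 CPM in CNS Neuron, 23.1-fold higher, with Ebf3 14.6-fold and Ebf2 9.87-fold. Myt1l, a repressor of other fates in neurons, was at 5.21, 20.1, 11.9 and 6.02 CPM in Neuronal Progenitor and 240.4, 167, 127 and 144 CPM in CNS Neuron, 16.2-fold higher, and Neurod1 was 11.7-fold higher. Neurod1 was less even in Neuronal Progenitor, where F1_mix held 43.7 CPM and the other 3 suspensions 8.35 to 10.6. Sox4 and Sox11, which are needed for pan-neuronal gene expression, were already at 426 to 683 and 902 to 1202 CPM in Neuronal Progenitor and were 2.61-fold and 2.92-fold higher in CNS Neuron.

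Within CNS Neuron, the UMIs of the pan-neuronal list differed with the factor of which a cell held a UMI. At 5000 gene UMIs the median CNS Neuron cell held 54 of them. Cells with a UMI of Dll1 held a median of 27 (22 to 31.5 by suspension) and those with Neurog1 36 (29.5 to 45.5). Cells with Neurog2 held 45 (38 to 52), those with Hes6 46 (41.5 to 51) and those with Dll3 51 (49 to 54). Cells with Neurod1 held 55 (54 to 57), those with Nhlh1 60 (55.5 to 62), those with Ebf1 61 (57 to 63) and those with Nhlh2 63 (62 to 63). Set against cells without a UMI of the same factor, the medians were 27 against 60 for Dll1, 55 against 52.5 for Neurod1 and 63 against 36 for Nhlh2. For Atoh1 they were 49.5 (18.5 to 61.5) against 54, and for Insm1, a zinc finger factor of newborn neurons, 54 (52 to 58) against 55. Neighbours in the order from Dll1 to Nhlh2 overlapped or touched between suspensions, while some factors further apart in it, such as Dll1 and Neurog2 or Hes6 and Neurod1, did not. In Neuronal Progenitor, where the median was 5, cells with Nhlh2 (20 of 589) held 18.5. Cells with Ebf1 held 8 there, as did those with Dll1, so the order was not the same in this type. This is a description over cells that share libraries, and a cell without a UMI of a factor may still express it.

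**Figure D3:**
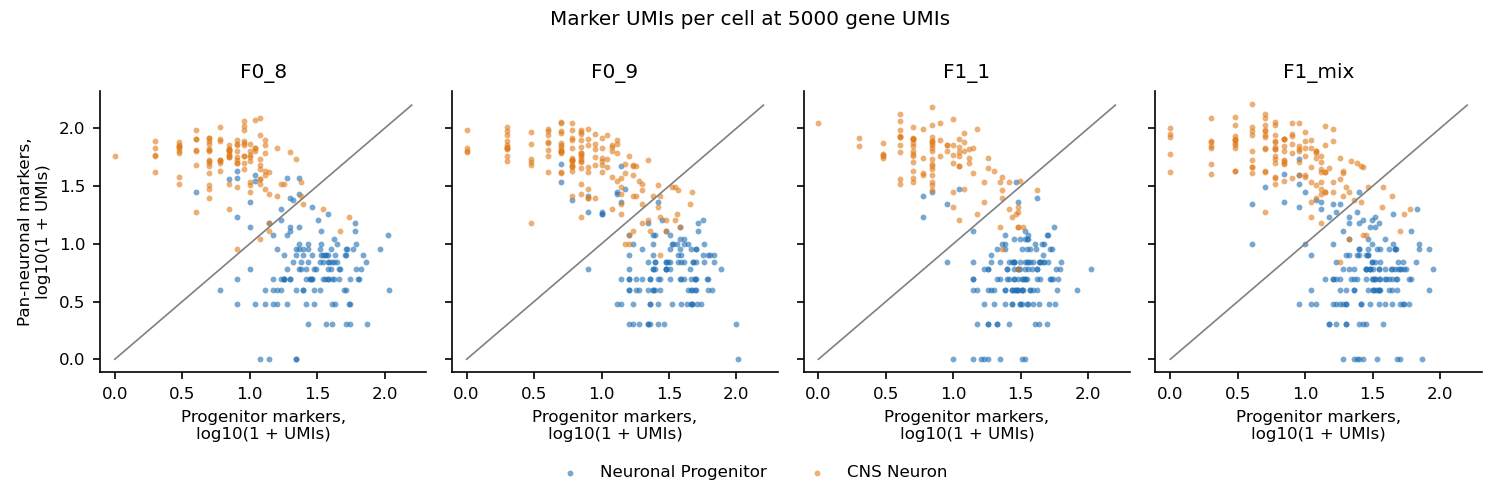
UMIs of the 18 pan-neuronal markers (y axis) against UMIs of the 18 neural progenitor markers (x axis) in 1104 single cells thinned to 5000 gene UMIs, both axes on a log10(1 + UMIs) scale, 1 panel per suspension, blue for Neuronal Progenitor and orange for CNS Neuron, with a line where both are equal. Above the line lie 53 of 589 Neuronal Progenitor cells and 465 of 515 CNS Neuron cells.

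Cells of each type were found on the other side of equal marker UMIs. More pan-neuronal than progenitor UMIs were held by 53 of 589 Neuronal Progenitor cells (9.0%, exact 95% interval 6.81% to 11.6%) and by 465 of 515 CNS Neuron cells (90.3%, 87.4% to 92.7%). By suspension the shares were 11.3%, 9.70%, 4.05% and 10.8% in Neuronal Progenitor and 95%, 85.8%, 88.7% and 92.2% in CNS Neuron. Within 3 UMIs of equality lay 16 cells of each type (2.72% and 3.11%). The cells that crossed differed in cycling genes: the 53 Neuronal Progenitor cells with more pan-neuronal UMIs held a median of 42 UMIs of the G2 and M list (30 to 55 by suspension), against 16 in the other 536, and the 50 CNS Neuron cells without more pan-neuronal UMIs held a median of 1 (0 to 1).

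Pan-neuronal markers were higher in CNS Neuron for 16 of 17 tested members (94.1%, background 29.8%), with a median log2 difference of 2.86. Tubb3, the tubulin of neurons, was at 301, 266, 187 and 322 CPM in Neuronal Progenitor and 3104, 2885, 3211 and 3514 CPM in CNS Neuron, 12.3-fold higher. Stmn2, a regulator of microtubules in growth cones, was at 39.1, 28.4, 40 and 51.4 CPM in Neuronal Progenitor and 1150, 1169, 1354 and 1338 CPM in CNS Neuron. The difference was 32.3-fold, log2 difference 5.01, SE 0.09, adjusted p = 1.49e-11. Nefl, the light neurofilament protein, was 46.6-fold higher, Ina, another neurofilament protein, 40.6-fold, Nefm 25.5-fold and Dcx, a microtubule protein of migrating neurons, 16-fold. At equal depth Stmn2 was found in 75.1% of CNS Neuron cells, 13.1% of Neuronal Progenitor cells and 3.33% of 60 Erythrocyte cells, which should lack it. Elavl2, an RNA-binding protein, differed least among called members, at 166, 173, 132 and 153 CPM in Neuronal Progenitor and 607, 548, 512 and 509 CPM in CNS Neuron. The member that was not called was Stmn4, at 49.0, 40.7, 28.6 and 41.7 CPM in Neuronal Progenitor and 51.2, 43.0, 46.6 and 48.7 CPM in CNS Neuron, log2 difference 0.29, SE 0.13, adjusted p = 0.0757.

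The chromatin, splicing and repressor genes known to be exchanged between progenitors and neurons gave 11 of 20 (55%, background 29.8%) higher in CNS Neuron, 5 (25%, background 30.6%) lower and 4 not called. Lower members were thus no more frequent than among all genes tested. Rest, the repressor of neuronal genes, was at 70.4, 60.2, 65.0 and 57.4 CPM in Neuronal Progenitor and 3.56, 7.87, 6.87 and 4.01 CPM in CNS Neuron. It was 10.9-fold lower in CNS Neuron, log2 difference -3.44, SE 0.20, adjusted p = 4.01e-08, while its corepressor Rcor1 was not called (log2 difference -0.11, SE 0.10, adjusted p = 0.386) and Rcor2 was 2.09-fold higher. Srrm4, a splicing activator of neuronal microexons that is itself repressed by Rest, was at 199, 181, 147 and 225 CPM in Neuronal Progenitor and 839, 863, 867 and 836 CPM in CNS Neuron, 4.69-fold higher. Of the subunits of the BAF chromatin remodeller, the progenitor forms Actl6a and Phf10 were lower by 1.51-fold and 2.41-fold and Ss18 by 1.25-fold (the call for Ss18 was lost in at least 1 setting). The neuronal forms Actl6b, Dpf3 and Ss18l1 were higher by 19.3-fold, 14.2-fold and 2.27-fold. Actl6b stood at 2.09, 1.67, 1.32 and 1.60 CPM in Neuronal Progenitor and 27.0, 32.7, 38.9 and 30.3 CPM in CNS Neuron. Its neuronal partner Dpf1 was not called (log2 difference 0.13, SE 0.19, adjusted p = 0.557), nor was Dpf2 (log2 difference 0.11, SE 0.10, adjusted p = 0.366).

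Among splicing regulators, Ptbp1, which represses neuronal exons, was at 101, 100.3, 138 and 130.4 CPM in Neuronal Progenitor and 34.9, 28.4, 47.3 and 41.2 CPM in CNS Neuron, 3.02-fold lower in CNS Neuron. Its neuronal relative Ptbp2 was at 309.7, 290.3, 284 and 259 CPM in Neuronal Progenitor and 304, 313, 314 and 285 CPM in CNS Neuron and was not called (log2 difference 0.13, SE 0.06, adjusted p = 0.0744). The other neuronal regulators were all higher: Celf3 by 10.5-fold, Celf4 by 8.37-fold, Nova2 by 3.93-fold, Rbfox1 by 3.43-fold, Rbfox2 by 2.82-fold and Nova1 by 2.03-fold. Rbfox1 stood at 50.1, 35.7, 21.5 and 38.5 CPM in Neuronal Progenitor and 164, 163, 89.3 and 81.3 CPM in CNS Neuron, and in CNS Neuron both founders lay above both F1 suspensions.

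Axon guidance and adhesion genes were higher in CNS Neuron for 16 of 25 (64%, background 29.8%), lower for 3 (12%, background 30.6%) and not called for 6. Cntn2, an adhesion protein of early axons, was at 0.521, 1.11, 1.32 and 0.803 CPM in Neuronal Progenitor and 156, 142, 154 and 150 CPM in CNS Neuron, with 8 UMIs in Neuronal Progenitor and 918 in CNS Neuron, a 153-fold difference (log2 difference 7.26, SE 0.18, adjusted p = 6.47e-11). Robo3, the Slit receptor variant of commissural axons, was at 5.74, 4.46, 4.83 and 6.02 CPM in Neuronal Progenitor and 109.6, 189, 232 and 191 CPM in CNS Neuron, 34.7-fold higher. Dcc, the netrin receptor, stood at 1535, 1684, 1161 and 1475 CPM in Neuronal Progenitor and 8887, 8517, 9475 and 8150 CPM in CNS Neuron. It was 6.2-fold higher without overlap, Plxna4, a semaphorin receptor, 5.98-fold and Robo1 4.69-fold. The ligands on the list were mixed: Sema6d, a semaphorin, was 2.56-fold higher without overlap, Slit1, Slit2, Slit3, Sema3a and Sema3c were not called, and the ephrins Efnb1 and Efnb2 were lower in CNS Neuron by 2.17-fold and 1.75-fold, as was the receptor Epha4 by 1.24-fold. The call for Epha4 was lost in at least 1 setting. Slit2, a repellent, was at 284, 223, 315 and 214 CPM in Neuronal Progenitor and 269, 316, 281 and 359 CPM in CNS Neuron, log2 difference 0.30, SE 0.13, adjusted p = 0.0596.

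Synaptic vesicle and transmitter genes were higher in CNS Neuron for 15 of 16 tested members (93.8%, background 29.8%). Slc6a5, the glycine transporter of inhibitory neurons, had 2 UMIs in Neuronal Progenitor and 243 in CNS Neuron, a ratio of 168 (exact counting interval 46.1 to 1400). Gad1, which makes the transmitter GABA, was at 4.17, 2.79, 1.76 and 4.82 CPM in Neuronal Progenitor and 61.2, 56.3, 32.8 and 45.2 CPM in CNS Neuron, 14.2-fold higher, Slc32a1, which loads GABA and glycine into vesicles, 13.9-fold, and Slc17a6, which loads glutamate, 12-fold. Rab3a, a small GTPase of vesicle release, was 10.6-fold higher. Syn2, a vesicle protein, was at 18.8, 18.9, 12.8 and 20.1 CPM in Neuronal Progenitor and 54.1, 41.1, 7.63 and 8.02 CPM in CNS Neuron and was not called (log2 difference 0.52, SE 0.37, adjusted p = 0.253). Chat and Slc18a3, which mark cholinergic neurons, had 0 UMIs in Neuronal Progenitor and 8 and 11 in CNS Neuron and were not tested.

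Transmitter genes were counted per CNS Neuron cell. Without thinning, 102 of 532 cells (19.2%, exact 95% interval 15.9% to 22.8%) held a UMI of Slc17a6 and none of Gad1, Gad2 or Slc32a1. The reverse was true of 135 cells (25.4%, 21.7% to 29.3%), both were found in 6 cells (1.13%, 0.415% to 2.44%) and neither in 289 (54.3%, 50% to 58.6%). Of 60 Erythrocyte cells, which should lack these genes, 6.67% held a UMI of Gad1, Gad2 or Slc32a1 and 0 held Slc17a6, which allows a share of up to 5%, at a median of 24289 gene UMIs per cell against 10898.5 in CNS Neuron. No Erythrocyte cell held both, since 0 held Slc17a6, and the same limit of 5% applies. The 1.13% of CNS Neuron cells with both lay below this limit, at lesser depth, and is not read as expression of both. The share with GABA genes alone was 27.8%, 32.5%, 19.1% and 20.7% by suspension, higher in both founders than in both F1 suspensions, and the share with neither was 47.6% and 47.7% in founders and 60.9% and 62.1% in F1. With 2 suspensions a side an exact permutation test cannot go below a p of 0.333, and the F1 cells were the deeper ones.

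Voltage-gated channel genes were higher in CNS Neuron for 13 of 15 tested members (86.7%, background 29.8%), lower for 1 and not called for 1. Cacna1b, a presynaptic calcium channel, was at 3.65, 5.01, 3.08 and 4.42 CPM in Neuronal Progenitor and 51.2, 44.2, 50.4 and 46.4 CPM in CNS Neuron, 12.1-fold higher, Cacna2d1, an auxiliary calcium channel subunit, was 11.3-fold higher and Scn3a, the sodium channel of embryonic neurons, 11.1-fold. Kcnd2, a potassium channel, went the other way, at 298, 186, 35.6 and 54.6 CPM in Neuronal Progenitor and 55.5, 61.7, 32.1 and 18.9 CPM in CNS Neuron, 3.02-fold lower in CNS Neuron. In Neuronal Progenitor both founders lay above both F1 suspensions, and the ranges of the types overlapped. Kcnh7 was not called (log2 difference 0.05, SE 0.26, adjusted p = 0.887).

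Factors that specify neuronal subtypes were higher in CNS Neuron for 19 of 21 tested members (90.5%, background 29.8%), with a median log2 difference of 3.75, the largest in favour of CNS Neuron among the 16 programme lists. That median was the same with Evx1, which had no UMI in Neuronal Progenitor, set to its bound. Lhx1, a LIM homeodomain factor of spinal and hindbrain interneurons, was at 3.65, 3.90, 0.44 and 7.62 CPM in Neuronal Progenitor and 131, 221, 233 and 223 CPM in CNS Neuron, 51.4-fold higher. Pax2, a factor of inhibitory interneurons, was at 5.21, 10.0, 6.15 and 8.83 CPM in Neuronal Progenitor and 179, 293, 219.9 and 303 CPM in CNS Neuron. It was 33.7-fold higher, log2 difference 5.08, SE 0.11, adjusted p = 2.94e-11. Tlx3, which selects the glutamatergic fate in the dorsal cord, was at 2.09, 1.11, 5.71 and 8.43 CPM in Neuronal Progenitor and 199.9, 132, 164 and 167 CPM in CNS Neuron, 36.1-fold higher. Tal1, a factor of ventral inhibitory interneurons, had 3 UMIs in Neuronal Progenitor and 145 in CNS Neuron, a ratio of 67.0 (22.5 to 329). Evx1, the factor of V0 commissural neurons, had 0 and 103 UMIs, at least 47.6-fold higher when 3 counts over the 4 suspensions are taken as the limit. Lmx1a (log2 difference -0.97, SE 0.52, adjusted p = 0.126) and Lhx2 (log2 difference 0.43, SE 0.25, adjusted p = 0.152) were not called.

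Of the dorsoventral factors that pattern progenitors, 9 of 17 tested (52.9%, background 30.6%) were lower in CNS Neuron, 3 (17.6%, background 29.8%) higher and 5 not called. Pax6, a factor of cortical and ventral spinal progenitors, was at 115, 92.5, 72.1 and 54.6 CPM in Neuronal Progenitor and 19.2, 27.8, 30.5 and 11.4 CPM in CNS Neuron, 3.65-fold lower. Msx2 and Msx1, roof plate factors, were lower by 7.31-fold and 3.56-fold, Shh, the signal of the floor plate, by 6.33-fold and Gsx2 by 3.64-fold. Pax3, a dorsal factor, was 1.83-fold lower, at 205, 345, 285 and 294 CPM in Neuronal Progenitor and 120.2, 171, 141 and 166 CPM in CNS Neuron. Foxa2, Olig3 and Nkx2-2 were called higher in CNS Neuron, each in 3 of 4 suspensions, and each lost its call in at least 1 setting. Dbx1 was at 37.5, 39.6, 28.6 and 54.6 CPM in Neuronal Progenitor and 21.3, 1.81, 78.6 and 79.0 CPM in CNS Neuron and was not called.

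Along the anterior-posterior axis, 16 of 24 tested genes (66.7%, background 29.8%) were higher in CNS Neuron and 5 (20.8%, background 30.6%) lower. Among the lower ones were genes active in the forebrain, midbrain or isthmus: Fgf8, the signal of the isthmus (21.7-fold), Otx1 (3.83-fold), Emx2 (3.36-fold) and Otx2 (2.48-fold). In CNS Neuron, Fgf8 stood at 3.56 CPM in F0_8 and at 0 to 0.605 CPM in the others, so its fold rests on few counts. Of the 15 Hox genes tested, which mark hindbrain and spinal cord, 14 were among the higher ones. Hoxb8 was at 40.1, 56.3, 55.8 and 55.8 CPM in Neuronal Progenitor and 174, 199.6, 162 and 178 CPM in CNS Neuron, 3.51-fold higher, and Hoxb6, Hoxb5 and Hoxb1 were higher by 4.07-fold, 3.81-fold and 6.34-fold. Hoxc10, a lumbar gene, was not called (log2 difference 0.27, SE 0.13, adjusted p = 0.0896). How the 2 types were spread along the axis in the embryos was not measured, and a different share of brain and cord cells and a different level per cell cannot be told apart.

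Genes of the apical junction and of radial glia adhesion were lower in CNS Neuron for 12 of 18 tested members (66.7%, background 30.6%). Crb2, a polarity protein of the apical membrane, was at 16.2, 21.2, 29.0 and 16.1 CPM in Neuronal Progenitor and 1.42, 2.42, 3.05 and 1.15 CPM in CNS Neuron, 9.76-fold lower. Sparc, a matrix protein, was lower by 8.12-fold, Lama1, a laminin of the basement membrane, by 7.81-fold, Metrn by 6.24-fold and the laminin receptor subunit Itga6 by 5.91-fold. Crb1, a relative of Crb2, and the polarity protein Pard3 were higher instead, Crb1 at 18.2, 17.8, 10.99 and 11.2 CPM in Neuronal Progenitor and 48.4, 61.7, 65.7 and 44.7 CPM in CNS Neuron, a 3.92-fold difference. Cdh2, the cadherin of neural cells, was at 487, 447, 412 and 363 CPM in Neuronal Progenitor and 483, 433, 451 and 412 CPM in CNS Neuron and was not called (log2 difference 0.11, SE 0.06, adjusted p = 0.131), and Itgb1 (log2 difference -0.08, SE 0.08, adjusted p = 0.4) and Ckb (log2 difference -0.03, SE 0.05, adjusted p = 0.624) were not called.

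Glycolysis genes were lower in CNS Neuron for 9 of 13 tested members (69.2%, background 30.6%). Ldha, which turns pyruvate into lactate, was at 572, 539, 1003 and 754 CPM in Neuronal Progenitor and 130.2, 209, 373 and 345 CPM in CNS Neuron, 2.72-fold lower, while Ldhb, which favours the reverse step, was at 255, 218, 159 and 195 CPM in Neuronal Progenitor and 301, 308, 265 and 289.7 CPM in CNS Neuron, 1.46-fold higher. Hexokinase showed the same exchange, Hk2 being 3.66-fold lower and Hk1 1.87-fold higher. Tpi1 was 2.24-fold, Pfkl 2.2-fold and Gapdh 2.08-fold lower, and Gpi1 was not called (log2 difference 0.14, SE 0.09, adjusted p = 0.202).

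By size alone, with at least 20 CPM on average, a call and the same direction in 4 of 4 suspensions, the 10 genes furthest on the CNS Neuron side included Sst, Otp, Ppp1r1c, Cntn2, Prrxl1, Tlx2, Uncx, Nxph4 and Klhl35. Sst, the neuropeptide somatostatin, was at 0, 0, 0 and 0.401 CPM in Neuronal Progenitor and 57.6, 8.47, 84.8 and 52.7 CPM in CNS Neuron, 1 UMI against 298, a ratio of 413 (73.6 to 16400). In CNS Neuron, F0_9 held far less than the other 3 suspensions. Otp, a homeodomain factor of hypothalamic and hindbrain neurons, had 3 and 563 UMIs, a ratio of 260 (88.6 to 1270), and Ppp1r1c, an inhibitor of protein phosphatase 1, 2 and 292, a ratio of 202 (55.5 to 1680). Uncx, a homeodomain factor, was at 3.13, 0.557, 1.32 and 6.82 CPM in Neuronal Progenitor and 188, 199, 297 and 259.9 CPM in CNS Neuron, 76.3-fold higher, and Klhl35 was 54.2-fold and Nxph4, a neurexophilin, 57.8-fold higher.

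The 10 furthest on the Neuronal Progenitor side were Cep55, Melk, H2ac4, Ndc80, Aurkb, Rspo1, Plk1, H1f5, Esco2 and Rgcc. Cep55, a protein of the last step of cytokinesis, had 621 and 3 UMIs, a ratio of 149 (50.8 to 726). Melk, a kinase of dividing cells, was at 79.8, 80.2, 81.8 and 87.5 CPM in Neuronal Progenitor and 0, 1.81, 0 and 0.573 CPM in CNS Neuron, and Ndc80, a kinetochore protein, was 87.9-fold and Esco2, which acetylates cohesin, 61.4-fold lower in CNS Neuron. The histone genes H1f5 and H2ac4, which sit in a cluster of near-identical copies so that their counts are uncertain, were at 954, 1148, 735 and 763 CPM in Neuronal Progenitor and 16.4, 11.49, 11.4 and 15.5 CPM in CNS Neuron for H1f5 and at 363 and 2 UMIs for H2ac4, a ratio of 131 (36.0 to 1080). Rspo1, an activator of Wnt signalling, is not a gene of the cell cycle machinery and had 338 and 3 UMIs, a ratio of 81.2 (27.6 to 396). Rgcc was at 58.9, 66.9, 13.6 and 70.6 CPM in Neuronal Progenitor and 1.42, 0, 0 and 1.72 CPM in CNS Neuron, with F1_1 lower than the other 3 suspensions in Neuronal Progenitor.

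Gene length differed between the sides. On GRCm38.p6, genes at least 2-fold higher in CNS Neuron spanned a median of 38.7 kb and 30.5% of them more than 100 kb. Genes at least 2-fold higher in Neuronal Progenitor spanned a median of 28.8 kb (19.3% over 100 kb), and all tested genes 27.3 kb (17.1%). Spans were found for 99.1% to 99.4% of these genes. No source used here states if intronic reads were counted, and the part of length in the counts was not tested.

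Marker lists of other cell types were low in both types, other than those for peripheral neurons and for neural crest. The 8 red blood cell markers summed to 89.2, 88.6, 90.5 and 86.7 CPM in Neuronal Progenitor and 91.8, 97.4, 97.7 and 100.2 CPM in CNS Neuron, and none of the 4 tested was called. Endothelial, macrophage, epithelial and muscle lists each stayed under 18 CPM in every sum, with Cdh5, Ptprc and Myod1 at 1, 1 and 0 UMIs in the 8 sums. Mesenchyme markers summed to 40.9 to 59.4 CPM in Neuronal Progenitor and 23.6 to 30.5 CPM in CNS Neuron. The list for peripheral sensory and autonomic neurons stood at 11.47, 22.8, 13.6 and 51.8 CPM in Neuronal Progenitor and 642, 477, 406 and 502 CPM in CNS Neuron. All 5 of its tested members were higher there, led by Isl1 at 5.21, 7.80, 1.32 and 19.7 CPM in Neuronal Progenitor and 333, 257, 161 and 249.6 CPM in CNS Neuron. Isl1 and Pou4f1 also occur in central neurons. Prph, Ret, Dbh and Runx3 had 7, 3, 4 and 0 UMIs in CNS Neuron. The 8 neural crest and Schwann precursor markers summed to 1606, 1999, 1471 and 1529 CPM in Neuronal Progenitor and 326, 396, 322 and 341 CPM in CNS Neuron, and 1301 to 1768 CPM of the former were Fabp7, which with Ednrb is also on the progenitor list. Of its 5 tested members, 3 were lower in CNS Neuron, Fabp7 and Ednrb among them, and 2 were higher, Foxd3 and Tfap2a, by 9.81-fold and 21-fold. Sox10, the defining factor of crest and its glia, had 57 UMIs in Neuronal Progenitor and 17 in CNS Neuron and Erbb3 45 and 2, and they were not tested. The part of such cells in the neuronal differences was not tested. Dissociation genes summed to 339 to 439 CPM in Neuronal Progenitor and 210 to 240 CPM in CNS Neuron. Of the 7 tested, 4 were lower in CNS Neuron (57.1%, background 30.6%), Jun by 3.49-fold, and 2 were higher (28.6%, background 29.8%).

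**Figure D4:**
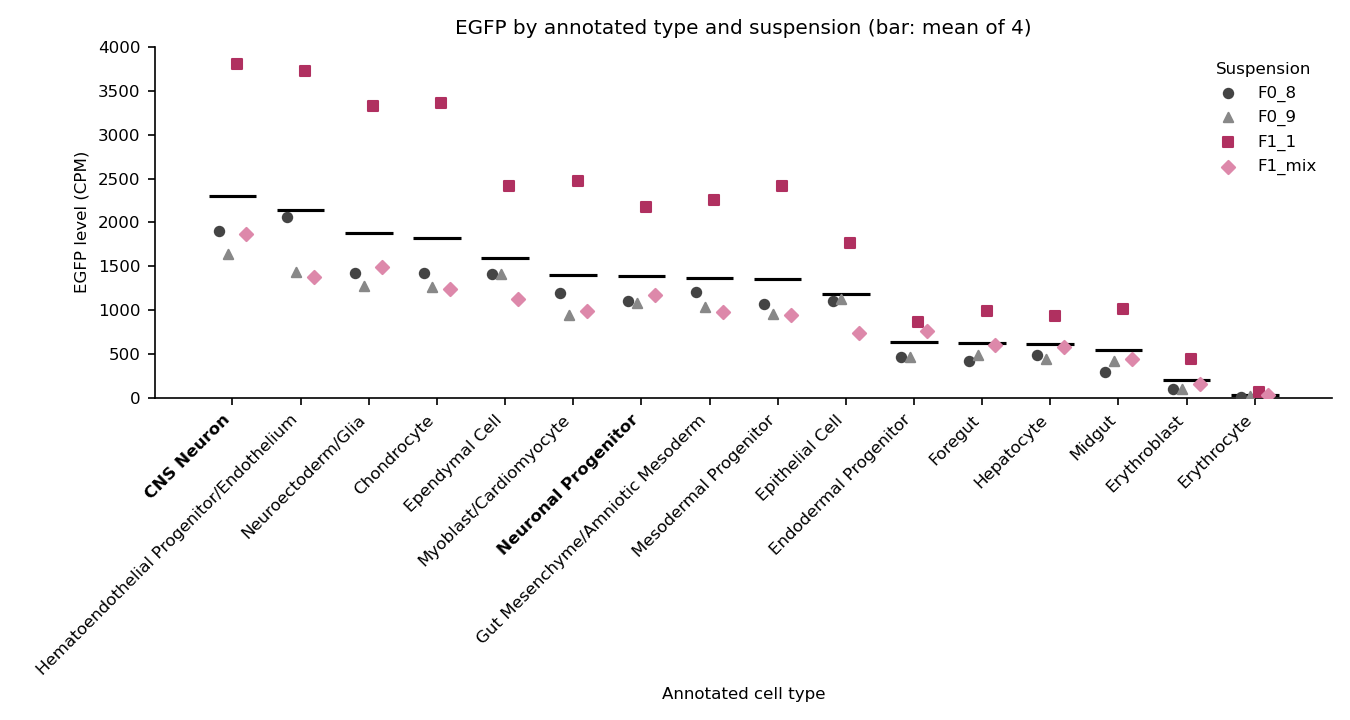
EGFP level in CPM (y axis, starting at 0) in each of the 16 annotated types (x axis, ordered by mean), 1 point per suspension with a bar at the mean of the 4. CNS Neuron is first by mean at 2304 CPM and Neuronal Progenitor is 7th at 1385 CPM, and F1_1 is the highest point of every type.

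EGFP, which had no part in drawing the clusters, was higher in CNS Neuron. Its levels were 1105, 1078, 2180 and 1175 CPM in Neuronal Progenitor and 1898, 1638, 3814 and 1868 CPM in CNS Neuron. The ranges of the 2 types overlapped because F1_1 was high in both, yet within each suspension CNS Neuron was higher, by 1.72-fold, 1.52-fold, 1.75-fold and 1.59-fold (1.64 ± 0.11, SD, n = 4). In the fit over all genes this was log2 difference 0.76, SE 0.04, adjusted p = 3.16e-08, and the exact two-sided permutation test over the 4 pairs gave its smallest possible p of 0.13. Counted per cell rather than as CPM, EGFP UMIs in CNS Neuron were 1.34 ± 0.10 times those in Neuronal Progenitor (SD, n = 4). Nearly every cell held EGFP in both types: all but 1 of the cells of each type had at least 1 UMI, against 40% of 60 Erythrocyte cells. Among the 16 annotated types, CNS Neuron had the highest mean level and ranked first in 3 of 4 suspensions and second in F0_8, and Neuronal Progenitor ranked 5th to 9th. Neuroectoderm/Glia, which held more pan-neuronal RNA than either, stood between them at 1879 ± 970 CPM (SD, n = 4). How far promoter activity and the stability of the EGFP RNA entered these levels was not measured.

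Whether the step from Neuronal Progenitor to CNS Neuron differed between founders (F0_8 and F0_9) and the F1 generation (F1_1 and F1_mix) was tested as an interaction, 2 suspensions against 2. It was called for 12 of 10469 genes (0.115%), 4 with a larger ratio in founders and 8 with a larger ratio in F1, and 705 genes had an unadjusted p under 0.05. DESeq2 called 3, and the count was 5 without the 14 cells at or over 5% mitochondrial UMIs, 5 with cells thinned to 5000 UMIs, 153 without a filter on low counts and 32 to 125 when 1 suspension was left out. The log2 ratios below were taken with 1 CPM added to each level. Lhx2, a LIM homeodomain factor of forebrain progenitors and of some spinal neurons, had log2 ratios of -0.50, -0.19, 1.37 and 1.15, a difference of -1.59 (SE 0.15, adjusted p = 0.00226 by edgeR). Its levels were 356, 199.5, 81.3 and 89.5 CPM in Neuronal Progenitor and 252, 174, 212 and 199.8 CPM in CNS Neuron, so that the suspensions parted mainly in Neuronal Progenitor. Neurog2 had log2 ratios of -0.23, 0.15, 1.69 and 1.55, a difference of -1.64 (SE 0.17, adjusted p = 0.00281 by edgeR), likewise with lower levels in F1 progenitors than in founder progenitors. These 2 genes kept their call under all 10 alternatives tried, and the other 10 each lost it under at least 1.

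**Figure D5:**
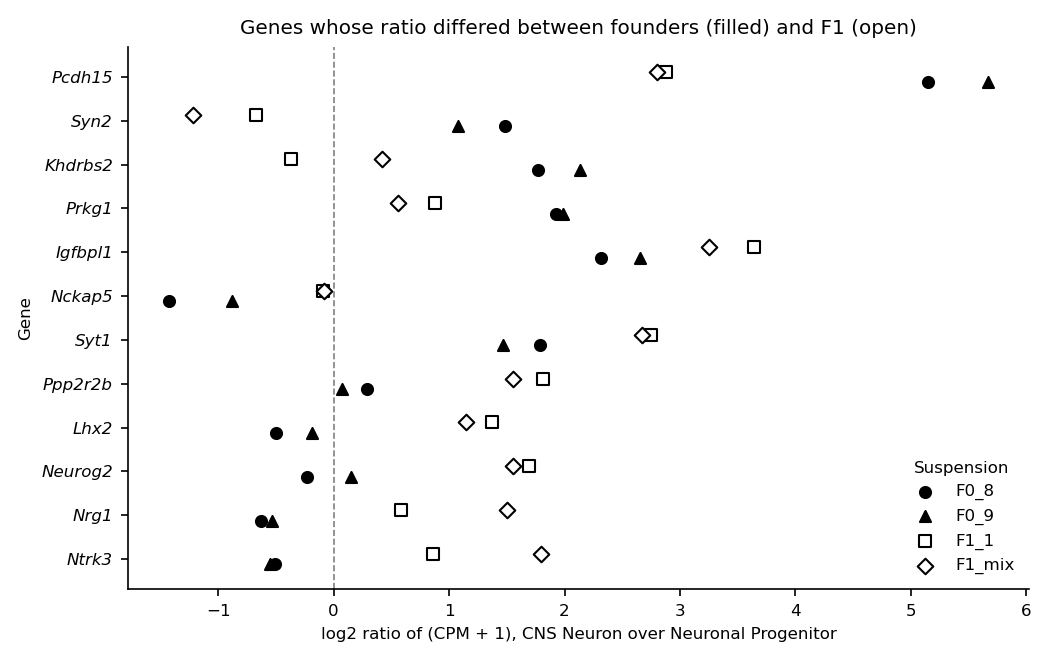
Log2 ratio of CNS Neuron over Neuronal Progenitor, with 1 CPM added to each level (x axis), for the 12 genes whose ratio differed between founders and F1 (y axis), 1 point per suspension, filled for founders and open for F1. Lhx2 lies at -0.50 and -0.19 in founders and at 1.37 and 1.15 in F1, and Pcdh15 at 5.15 and 5.67 against 2.88 and 2.80.

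Pcdh15, a protocadherin, was the member with the largest difference in favour of founders, at 15.6, 5.01, 6.59 and 8.03 CPM in Neuronal Progenitor and 589, 304, 55.0 and 61.8 CPM in CNS Neuron, with log2 ratios of 5.15, 5.67, 2.88 and 2.80. Khdrbs2, an RNA-binding protein, Syn2 and Prkg1, a cGMP-dependent kinase, were the others on that side. Nrg1, a ligand of ErbB receptors, Ntrk3, the receptor of neurotrophin 3, Igfbpl1, Nckap5, Syt1 and Ppp2r2b were on the F1 side with Lhx2 and Neurog2. In Neuronal Progenitor, Emx2, a forebrain gene, was also higher in founders, at 71.4 and 50.7 CPM against 19.3 and 18.5. Hoxb4, a cord gene, was lowest in F0_8, at 26.6 CPM against 47.4 to 57.1 in the other 3. The part of the region sampled in the 12 genes was not tested, and generation, embryo and region cannot be told apart with 1 embryo or mixture per suspension.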

How the data were processed

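Single cells of 4 suspensions were measured in 1 droplet library with 3′ chemistry, with a second library for the multiplexing oligos. The authors ran Cell Ranger (7.2.0 per the file headers) on mouse GRCm38 (mm10 in the submitters' processing notes) with the EGFP sequence added, and deposited UMI counts per gene and cell barcode for each suspension, without correction for free RNA. Their annotation came from Seurat with SoupX, EGFP removed, DoubletFinder and RECODE, and their table also gives each cell's mitochondrial percent, deposited by the authors as a percent of its total. All cells of both types carried the singlet call. Of the table's columns, 6 were used and 16 columns of per-cell values were not.

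Here, gene UMIs (the 12 oligo features left out) were summed per suspension and type and fitted with edgeR 4.0.16 in R 4.3.3 (quasi-likelihood test, TMM, filterByExpr, the suspension as block, Benjamini-Hochberg adjustment). DESeq2 1.42.0 served as an alternative. Both sums of a suspension come from the same embryo or mixture, and the deviations of its 2 sums from their type means correlated at 0.213, 0.09, 0.172 and 0.13, against at most 0.074 with another suspension. F1_mix pools embryos, and all suspensions share 1 library, so p-values measure only the spread between these suspensions. Intervals for shares of cells are exact (Clopper-Pearson) at 95%, and intervals for ratios of small counts are exact too; both cover counting error only. Promoter windows and gene spans were taken from RefSeq tables of GRCm38.p6 by symbol, 8412 of 10469 tested genes having a window. Genes were named by a rule: the 10 largest folds in each direction with at least 20 CPM, a call and the same direction in 4 of 4 suspensions, up to 5 called members of each list in each direction and up to 3 that were not called, all chromatin, splicing and repressor genes, EGFP and the genes called for generation. Some genes that meet this rule or are counted in a list are not reported here. Members of lists named for their role beside these were chosen after their values were seen. The cell types, gene lists and tests were chosen with earlier results of these data known. On simulated counts (10308 genes) the test recovered 52%, 90%, 100% and 98% of genes changed by 1.5-fold, 2-fold, 4-fold and 8-fold, and the test of generation (10319 genes) 16%, 46%, 84% and 96%. The simulation gave every gene the same dispersion (0.006008), no difference between suspensions and only 200 changed genes. Measured genes differ in spread, so these shares need not hold for the measured counts.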

Additional observations from a re-analysis of the deposited data

Results flagged for a closer look

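Among the genes named, 389 groups of 4 suspensions were examined for a sample far from the other 3, and 23 held one (5.91%), near the 1 in 20 that chance gives. EGFP was highest in F1_1 in both types, at 2180 CPM in Neuronal Progenitor (others 1078 to 1175) and 3814 CPM in CNS Neuron (others 1638 to 1898). In Neuronal Progenitor, F1_mix was highest for Neurod1 (43.7 CPM, others 8.35 to 10.6), Dll3 (61.8, others 28.6 to 32.3), Ebf1 (103.1, others 55.8 to 62.4), Rcor2 (137, others 115.2 to 115.6), Ccnb2 (185, others 154 to 158) and Sst (0.401, others 0). F1_1 was lowest there for Dcx (19.3, others 30.2 to 32.1) and highest for Lama1 (98.5, others 60.0 to 63.0), F0_8 was lowest for Hoxb8 (40.2, others 55.8 to 56.3), and F0_9 was highest for Sema6d (41.2, others 17.2 to 20.7).

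In CNS Neuron, F0_8 was lowest for Hes5 (19.9 CPM, others 48.1 to 53.5) and Lhx1 (130.9, others 221 to 233) and highest for Ppp2r2b (164, others 38.4 to 56.5), Sema3c (24.9, others 2.29 to 6.05) and Fgf8 (3.56, others 0 to 0.605). F1_1 was highest for Hoxb1 (43.5, others 14.9 to 19.5) and Notch3 (17.6, others 7.44 to 9.08), and F1_mix for Igfbpl1 (1349, others 1272 to 1278) and Rspo1 (1.72, others 0). F0_9 was the only suspension with UMIs of Cdkn2c (1.82) and H2ac4 (1.21).

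The log2 ratio of CNS Neuron over Neuronal Progenitor differed between founders and F1, by the interaction test, for 12 genes. The difference, founders minus F1, was 2.48 for Pcdh15, 2.44 for Syn2, 1.88 for Khdrbs2 and 1.27 for Prkg1. It was -0.93 for Igfbpl1, -1.02 for Nckap5, -1.05 for Syt1, -1.51 for Ppp2r2b, -1.59 for Lhx2, -1.64 for Neurog2, -1.70 for Nrg1 and -1.88 for Ntrk3.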

How the results depend on the processing

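The count of genes higher in CNS Neuron, the count higher in Neuronal Progenitor, both counts at 2-fold and the EGFP difference stayed within 1.5 times or kept their call under the alternatives tried. Leaving out 1 suspension gave 2715 to 2879 and 2937 to 3074 genes, 1230 to 1280 and 1415 to 1446 at 2-fold, and an EGFP log2 difference of 0.72 to 0.79. Without the replicate block, which ignores that both sums of a suspension are paired, 3025 and 3107 genes were called and EGFP kept its call (log2 difference 0.77, adjusted p = 0.0271 by edgeR). The count for generation moved from 12 to 3 with DESeq2, 153 without a filter on low counts, 5 with the mitochondrial limit, 5 with cells thinned to 5000 UMIs, and 32 to 125 with 1 suspension left out, where the lone suspension of a generation is assumed to vary like the others; the cause was not tested.

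Of 194 named genes, 13 reversed at least once, none of them called. With 1 suspension left out, the log2 differences ran from -0.48 to 0.57 for Dbx1, -0.29 to 0.32 for Dll1, -0.05 to 0.26 for Dpf1, -0.24 to 0.53 for Eomes, -0.25 to 0.46 for Kcnh7, -0.28 to 0.52 for Nrg1, -0.07 to 0.74 for Ntrk3, -0.02 to 0.54 for Ptf1a, -0.15 to 0.04 for Sema3a and -0.01 to 0.72 for Slit3. Dbx1 was -0.48 with DESeq2. Dll1 was -0.01 with library size alone, -0.01 with DESeq2, -0.00 without a filter and -0.13 with thinned cells. With thinned cells Gpi1 was at -0.11, Kcnh7 at -0.06, Lin28b at 0.13, Nrg1 at -0.42 and Numb at -0.14, and Nrg1 was at -0.04 without the block. A call was lost in at least 1 setting by 12 named genes: Cdkn1a, E2f1, Epha4, Foxa2, Jag1, Nckap5, Neurog2, Nkx2-2, Olig3, Ppp2r2b, Rfng and Ss18. Depth limits the genes with few UMIs, such as Sst, Otp and Slc6a5 in Neuronal Progenitor, whose ratios carry wide counting intervals, and 2 suspensions per generation limit the comparison of generations.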
